A study of Mus musculus with 4 samples.

Results

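Classical monocytes of the aged mouse lung were taken as the barcodes with RNA of Ptprc (the gene of CD45), Ccr2, Ly6c2 and F13a1 and little or no RNA that marks other blood cells. In numbers, a barcode needed at least 1 UMI (a counted RNA molecule) of Ptprc, Ccr2 and F13a1 and at least 2 of Ly6c2. It could hold at most 1 UMI each of Treml4, Adgre4, Retnlg, Cd3e and Cd79a, and at most 4 of C1qa, C1qb and C1qc together. Barcodes were first kept if they held 500 genes and 1000 UMIs or more and mitochondrial RNA did not exceed 10%. Of the 68675 that remained, 1162 were members. Members were chosen by these measured UMI counts, so the genes of the rule chose the cells and their levels are description and not results. All libraries came from male C57BL/6 mice that were 19 months old at the start and were dosed for 1 month. One group received BPTES, a small-molecule inhibitor of glutamine use, and the other received its vehicle DMSO, so every animal was aged and injected and no young or undosed animal is compared here. Each group had 2 libraries. The labels say neither how many mice a library pooled nor whether the libraries came from separate mice, so a p-value measures the spread between these libraries, which may be technical. Lungs were digested with Liberase for 1 hour, and 20000 sorted CD45-negative cells were mixed with 9000 CD45-positive cells per library, which fixes the balance of the 2 compartments.

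Classical monocytes leave the bone marrow through the chemokine receptor CCR2, circulate with high surface Ly6C, and enter tissues as short-lived inflammatory cells or as precursors of macrophages and dendritic cells. In blood they also convert into non-classical monocytes, which patrol vessel walls and depend on the nuclear receptor Nr4a1. In the lung, part of the class lies in capillaries and part in the interstitium. Dissociated tissue does not keep these places apart.

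The libraries held 267 and 407 members with BPTES and 236 and 252 with DMSO. Their summed UMIs ranged from 6699660 to 10543789 per library. Members were deep barcodes. Median depth per member was 25795 and 25408 UMIs for BPTES 1 and 2, and it was 29738.5 and 27911.5 for DMSO 1 and 2, so the DMSO members were deeper in both libraries, with a mean difference (BPTES minus DMSO) of -3223.5 UMIs (exact permutation p = 0.333, two-sided, the smallest that 2 libraries against 2 can give). Mitochondrial UMIs made up a median of 1.43% and 1.43% with BPTES and 1.51% and 1.54% with DMSO. No member barcode occurred in more than 1 library, whereas 65 to 104 of all kept barcodes were shared by each pair of libraries. Few members sat at the edge of the rule. With 2 UMIs of Ly6c2 there were 3, 11, 9 and 19 members (BPTES 1, BPTES 2, DMSO 1, DMSO 2), and 6, 6, 9 and 16 barcodes met every other term but had 1 UMI of Ly6c2. Vcan, a matrix proteoglycan of monocytes that the rule did not use, was present in 0%, 45.5%, 55.6% and 57.9% of the former and in 0%, 33.3%, 44.4% and 50.0% of the latter.

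The label was checked on genes outside the rule. Vcan averaged 474 CPM over the 4 libraries (CPM, a gene's UMIs scaled to the class's summed UMIs in that library). It had 12.95 CPM in non-classical monocytes, 18.2 in interstitial macrophages, 4.14 in neutrophils and 3.33 in endothelium, all gated the same way. That ratio of 26.0 to the next of the 3 myeloid classes was the highest of any gene of at least 50 CPM. It was followed by Ms4a4c, a tetraspan membrane protein (434 CPM, ratio 6.52), the interferon-inducible Ifi211 (129.8 CPM, ratio 5.33), the uridine-cytidine kinase Uck2 (209 CPM, ratio 5.10) and Ifi209 (172 CPM, ratio 4.87). B cells, which the ratio did not use, held 146 CPM of Ifi209 and 114 of Ms4a4c. Cd177, a surface protein better known from neutrophils, had 120.5 CPM here and 25.3 in the neutrophils. Nrg1, the growth factor neuregulin, had 118 CPM. Stxbp6, Plcb1 and Ifi47 completed the leading 10, but endothelium held 344, 2158 and 109.6 CPM of them against 397, 1281 and 70.6 in the class. These comparisons between gated classes are description, without a test. Some members also carried dendritic-cell markers, a set of 6 genes with Flt3 and Cd209a that the rule did not use. At least 3 UMIs of them were in 19.1% and 21.4% of members with BPTES and in 10.6% and 12.3% with DMSO. The CPM of the set overlapped, at 103 and 91.2 with BPTES and 63.0 and 113 with DMSO. After thinning each member to 3000 UMIs, Flt3 was in a mean of 10.8% with BPTES and 6.96% with DMSO. Cd209a was in 4.34% and 5.10%, and its groups overlapped. No order is therefore read from the shares of the set. What the members with these markers contribute to the differences below was not tested.

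The most abundant transcripts after ribosomal and mitochondrial ones were Gm42418, a locus that overlaps ribosomal RNA (46423 CPM), and Lyz2, lysozyme (18346 CPM, against 62.9 in endothelium). The cytoskeletal Tmsb4x, Actb, Actg1 and Vim, the long non-coding Malat1, the translation genes Tpt1 and Eef1a1 and ferritin Fth1 made up the rest of the leading 10, at 3837 to 8884 CPM. Fn1, fibronectin, averaged 1806 CPM in the class and 176 in non-classical monocytes. Cx3cr1, the receptor that marks patrolling monocytes, had 129.9 CPM here and 222 there.

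**Figure D1:**
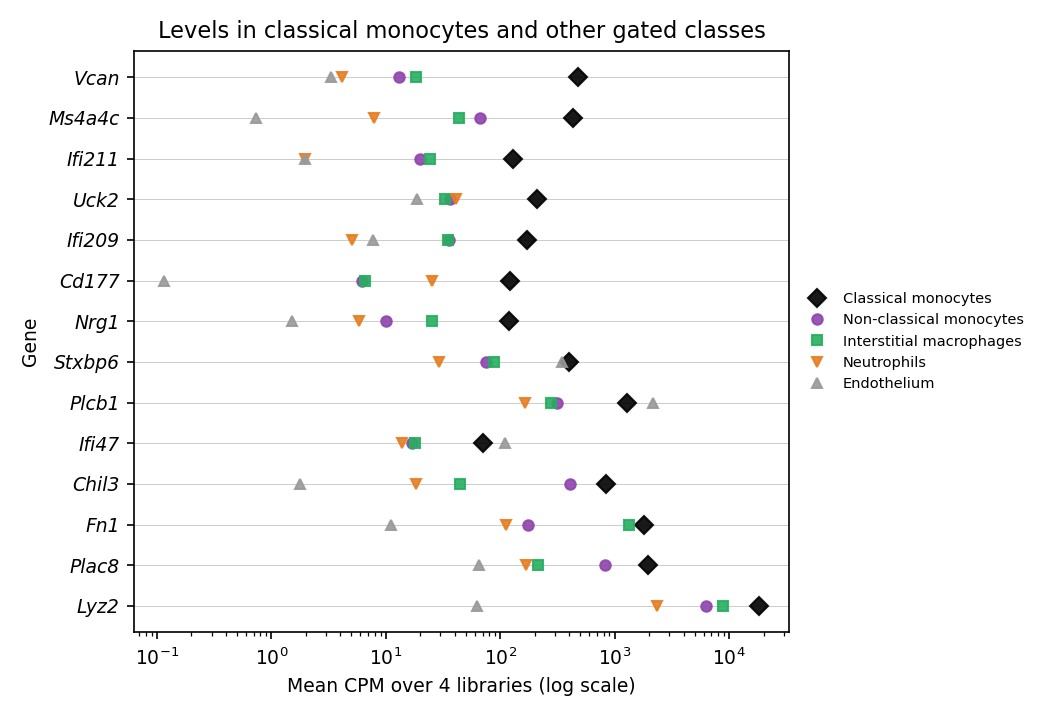
Mean CPM over the 4 libraries (log axis) of the 10 genes with the largest ratio to the other myeloid classes and of 4 further monocyte genes, in classical monocytes (black) and 4 other gated classes. Vcan stands farthest apart, at 474 CPM against at most 18.2 in the other 4 classes, while Stxbp6, Plcb1 and Ifi47 are near the same level or higher in endothelium.

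Members made up 4.79% and 6.57% of the Ptprc-positive barcodes with BPTES and 4.23% and 3.19% with DMSO. The exact (Clopper-Pearson) 95% intervals, which cover counting error only, were 4.24 to 5.38, 5.96 to 7.21, 3.71 to 4.79 and 2.81 to 3.603%. Both BPTES libraries lay above both DMSO libraries, although the intervals of BPTES 1 and DMSO 1 overlap. The means were 5.68% ± 1.26 and 3.71% ± 0.732 (SD, n = 2 each), a difference of 1.97 percentage points with an exact permutation p of 0.333, two-sided, which is the smallest possible. Without BPTES 2 the difference was 1.08 percentage points. Of all kept barcodes, members made up 2.05% ± 0.569 and 1.38% ± 0.220 (SD, n = 2 each). A share of a sorted mixture also moves with the other CD45-positive cells, of which B cells, gated by Cd79a, numbered 715 and 611 with BPTES and 1282 and 1605 with DMSO. What these B-cell numbers contribute to the difference was not tested.

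**Figure D2:**
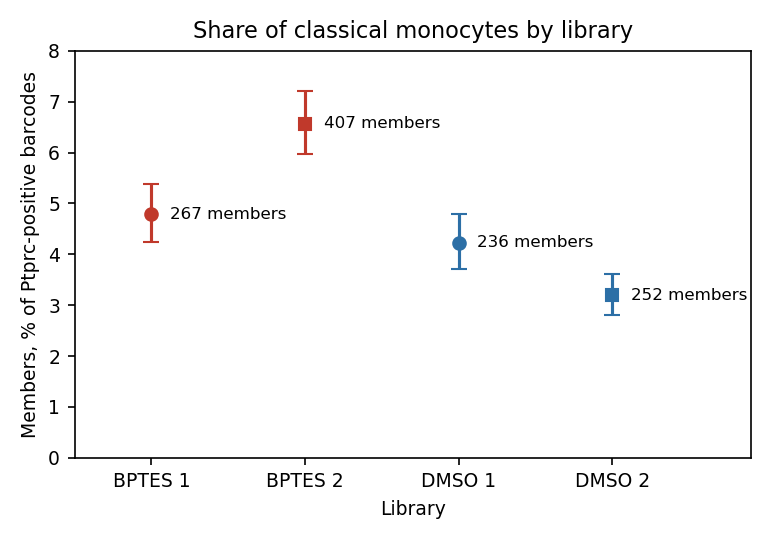
Members as a percentage of Ptprc-positive barcodes (vertical axis, from 0) in each library, with exact 95% binomial intervals and the number of members. The BPTES libraries sit at 4.79% and 6.57% and the DMSO libraries at 4.23% and 3.19%, with the intervals of BPTES 1 and DMSO 1 overlapping.

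The main comparison asked which genes differed between BPTES and DMSO in the summed counts of all members. edgeR's quasi-likelihood test called 12 of 11917 genes (0.101%) at a Benjamini-Hochberg adjusted p under 0.05, of which 11 (0.0923%) were higher with BPTES and 1 (0.00839%) lower. At an unadjusted p under 0.05 the count was 1519 (12.7%). The 2 groups did not overlap for 45.4% of the genes. Of the 12 genes, 9 belong to the surfactant-making alveolar type 2 (AT2) cells or other lung epithelium, and 1 to fibroblasts. They are described first, with the share of their UMIs that 2 members held where it was computed.

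Sftpc, which encodes surfactant protein C of AT2 cells, had 1458 and 1249 CPM with BPTES and 46.8 and 108 with DMSO, a log2 fold change of 4.13 (SE 0.355, adjusted p = 0.0290). In the BPTES libraries 2 members held 87.0% and 88.0% of all its UMIs, and the richest single members had 9069 and 9927. In the DMSO libraries the 2 richest members held 3.61% and 3.81%, and the richest had 6 and 17. Most members with BPTES and DMSO carried a few Sftpc UMIs, as did endothelium, where the level was 303 and 217 CPM with BPTES and 95.5 and 167 with DMSO. High concentration in 2 members was also seen for the surfactant genes Sftpa1, Sftpb and Sftpd, the epithelial chemokine Cxcl15 and the secreted Wfdc2. Their log2 fold changes ran from 4.06 to 5.04, and 76.5% to 91.4% of their UMIs with BPTES sat in 2 members. Hc, complement component C5, was higher by 3.82 (adjusted p = 0.0437), with 89.5% and 86.4% in 2 members. Chil1 and Lamp3, both epithelial in the lung, were higher by 3.65 and 4.20 (adjusted p = 0.0359 and 0.0399). Dcn, the fibroblast proteoglycan decorin, had 41.5 and 49.7 CPM with BPTES and 134 and 161 with DMSO (log2 fold change -1.69, SE 0.129, adjusted p = 0.0204), and its 2 richest members held 74.0% to 96.5% of it in every library.

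The remaining pair of calls was Nav2 and Nfkbiz. Nav2, a cytoskeletal guidance gene, had 44.0 and 42.3 CPM with BPTES and 18.2 and 16.8 with DMSO (log2 fold change 1.30, SE 0.117, adjusted p = 0.0332). Its UMIs were partly concentrated, with 41.0% and 42.7% in 2 members with BPTES. A UMI of it was in 14.2% and 14.0% of members against 22.9% and 18.3%, but after thinning each member to 3000 UMIs, which removes the difference in depth, the mean shares were 4.34% and 2.47%, and 4.01% in endothelium, so no order is read from them. Its log2 fold change was -0.52 among the filtered members described next. Nfkbiz, which encodes IκBζ, a nuclear regulator of secondary NF-κB target genes, had 221 and 213 CPM with BPTES and 129.6 and 136 with DMSO. Both BPTES libraries lay above both DMSO libraries, with a log2 fold change of 0.71 (SE 0.0717, adjusted p = 0.0425). Its UMIs were spread, with 84.3% and 78.4% of members carrying one against 67.4% and 68.7%, and at most 14.1% in any 2 members. After thinning to 3000 UMIs the mean shares were 35.3% with BPTES and 23.6% with DMSO, and 49.3% in endothelium. No order is therefore read from the shares of Nfkbiz. Leaving out the few members with over 2.5 times their library's median UMIs (3, 3, 1 and 2 members) left no gene called by edgeR, with 1493 genes at an unadjusted p under 0.05. Nfkbiz then had a log2 fold change of 0.76 and an adjusted p of 0.119.

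**Figure D3:**
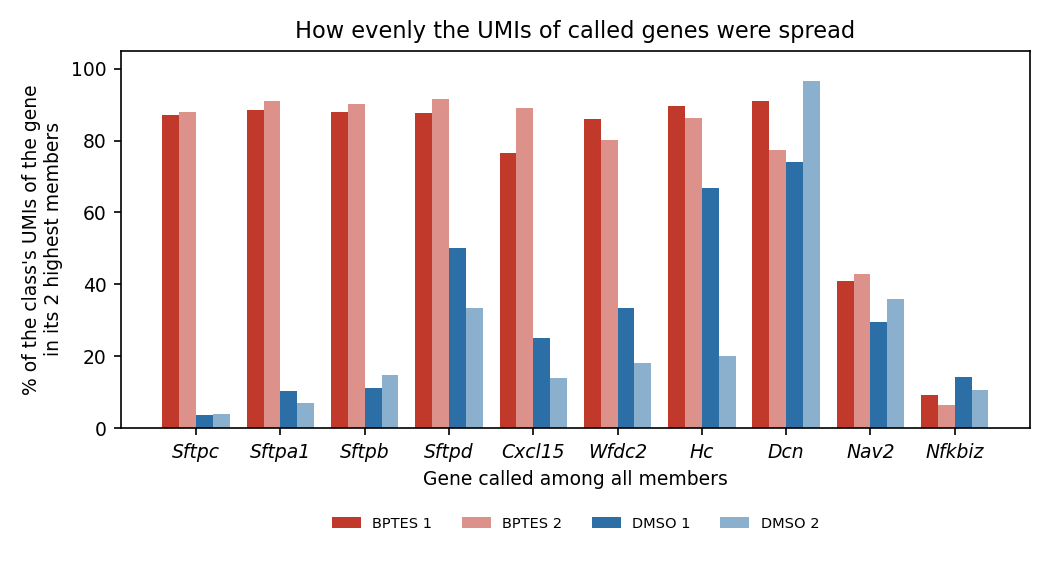
Percentage of the class's UMIs of each called gene that its 2 richest members held (vertical axis, from 0), by library. The surfactant genes, Cxcl15, Wfdc2 and Hc stand between 76.5% and 91.4% in both BPTES libraries, Dcn is concentrated in all 4 libraries, and Nfkbiz is at most 14.1%.

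To see the class without such barcodes, members with at least 3 UMIs of endothelial, fibroblast, B, T or NK marker genes, or any UMI of the epithelial Epcam, were left out. This filter was added after the data had been seen. It kept 219 and 318 members with BPTES and 192 and 199 with DMSO, between 78.1% and 82.0% of each library. The members left out were deeper, with medians of 28901 to 34378 UMIs against 24920 to 29522 for those kept. AT2 markers then summed to 243 and 187 CPM with BPTES and to 54.98 and 139 with DMSO. T-cell markers ranged from 1.64 to 2.75 CPM over the libraries and NK markers from 0.366 to 1.27. The filter used both sets, so their low values follow from it. Among sets that it did not use, markers of alveolar type 1 cells ranged from 206 to 257 CPM. Dendritic-cell markers ranged from 51.3 to 111 CPM. Neutrophil markers stayed at 142 and 181 CPM with BPTES and 352 and 209 with DMSO. The richest single members held 21, 309, 489 and 218 such UMIs (BPTES 1, BPTES 2, DMSO 1, DMSO 2), and 1 member of BPTES 2 held 10668 UMIs of airway markers.

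Among the filtered members edgeR called 20 of 10421 genes (0.192%), 15 higher (0.144%) and 5 lower (0.048%) with BPTES, and 1497 (14.4%) had an unadjusted p under 0.05. Nfkbiz alone was called both among all members and here. The count leaned on single libraries: it was 16 without BPTES 1, 2 without BPTES 2, 6 without DMSO 1 and 120 without DMSO 2, although all 20 log2 fold changes kept their sign in these 4 fits. Ccl3 and G0s2 were called in all 4, Lcn2 in 3, and the others in 1 or 2.

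Transcription regulators come first. Cebpa, a master regulator of myeloid differentiation, had 71.5 and 71.6 CPM with BPTES and 30.6 and 36.5 with DMSO, a log2 fold change of 1.09 (SE 0.120, adjusted p = 0.0348). Members with a UMI of it made up 71.7% and 71.4% against 50.0% and 51.8%. Cebpg, a partner of C/EBP proteins and of ATF4, rose from 57.1 and 58.9 CPM with DMSO to 99.3 and 109.9 with BPTES (0.85, SE 0.0960, adjusted p = 0.0366). Klf2 and Klf6 are Krüppel-like factors. Klf2, which restrains myeloid activation, stood at 455 and 509 against 273 and 307 CPM (0.73), and Klf6 at 408 and 383 against 263 and 239 CPM (0.65), both with an adjusted p of 0.0418. Zbtb16, the zinc-finger factor PLZF, had 43.2 and 45.7 CPM against 18.0 and 17.4 (1.33, SE 0.128, adjusted p = 0.0293). For each of these 5 genes the groups did not overlap, which was so for 46.4% of all genes among the filtered members.

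Regulators of signalling formed the next group. Dusp1, the phosphatase that switches off p38 and JNK kinases, had 1091 and 964 CPM with BPTES and 594 and 667 with DMSO (log2 fold change 0.70, SE 0.0934, adjusted p = 0.0418). Practically every member carried it, from 99.4% to 100% by library, a share too near its ceiling to show a difference in positive cells. Tsc22d3 encodes GILZ, a glucocorticoid-induced anti-inflammatory protein, and stood at 97.3 and 100.2 against 49.1 and 60.1 CPM (0.86, adjusted p = 0.0418). Nfkbiz had 171 and 164 against 83.9 and 105.1 CPM (0.83, adjusted p = 0.0418), lower levels in all 4 libraries than over all members. The small GTPase gene Rhob had 99.1 and 111 against 50.0 and 54.1 CPM (1.02, adjusted p = 0.0293). Racgap1, a GTPase-activating protein of cell division, had 67.8 and 61.1 against 30.0 and 33.3 CPM (1.02, adjusted p = 0.0407). On the list of cell cycle genes, 12 of 15 tested were below 0 among all members (median -0.35), none called. Among the filtered members 5 were above 0 and 6 below (median -0.05), none called. Fkbp5, another gene that glucocorticoids induce and that was looked at after the data were seen, was not called: it had 19.8 and 27.5 against 8.91 and 12.9 CPM (1.14, adjusted p = 0.124).

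One chemokine was called. Ccl3, a ligand of CCR1, had 129.7 and 91.9 CPM with BPTES and 33.8 and 33.5 with DMSO, a log2 fold change of 1.71 (SE 0.171, adjusted p = 0.0293). A UMI of Ccl3 was in 48.9% and 37.4% of members with BPTES and in 18.2% and 22.1% with DMSO. These shares were neither thinned nor set against another class. Its neighbour and functional relative Ccl4 had 84.1 and 139.7 against 25.5 and 47.4 CPM and missed the threshold (1.64, adjusted p = 0.0967). The other genes that rose act in lipid handling or are less well placed. Hpgd, which degrades prostaglandins, had 151 and 123 against 74.2 and 66.8 CPM (0.95). Sgms1, a sphingomyelin synthase, had 323 and 306 against 168 and 199 CPM (0.78). Tmcc1, an endoplasmic reticulum protein, and Amz1, a metalloprotease, each had a log2 fold change of 0.78. All 4 had an adjusted p of 0.0418.

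The 5 genes that fell include granule and neutrophil-type genes. Prtn3, the granule serine protease 3 of myeloid precursors, had 22.4 and 25.4 CPM with BPTES and 72.2 and 52.3 with DMSO (log2 fold change -1.38, SE 0.173, adjusted p = 0.0418). It was spread over members, of which 30.1% and 31.8% carried it against 67.7% and 47.7%, and the neutrophils held only 2.06 CPM of it on average. The shares were not thinned and the DMSO members were deeper, so no order is read from the shares. Trem3, a receptor of myeloid cells, had 55.9 and 55.1 against 93.3 and 88.6 CPM (-0.71), and H1f0, a linker histone, 42.4 and 42.6 against 72.2 and 75.5 CPM (-0.80), both with an adjusted p of 0.0418. G0s2, a lipolysis inhibitor, had 11.5 and 12.8 against 47.7 and 54.1 CPM (-2.06, adjusted p = 0.00763). Lcn2, the iron-siderophore binding lipocalin, had 6.48 and 4.74 against 43.7 and 27.04 CPM (-2.68, adjusted p = 0.0331). Neutrophils expressed both far more strongly, at 3019 and 807 CPM, and in the DMSO libraries 2 members held 46.2% and 44.8% of the G0s2 UMIs and 29.2% and 41.8% of the Lcn2 UMIs. When members with at least 10 UMIs of neutrophil markers were also left out (6, 7, 14 and 11 members), G0s2 was no longer called (-1.19, adjusted p = 0.133). Lcn2 remained called (-2.10, adjusted p = 0.0180), as did the 18 other genes, and the total rose to 84 of 10313 genes tested. Over all members, without these filters, Lcn2 overlapped, at 20.1 and 23.9 against 42.5 and 23.7 CPM (-0.58, adjusted p = 0.430). There 2 members held 66.0% and 77.5% of its UMIs with BPTES and 24.5% and 40.4% with DMSO. The size of its fall thus depended on a filter added after the data had been seen.

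**Figure D4:**
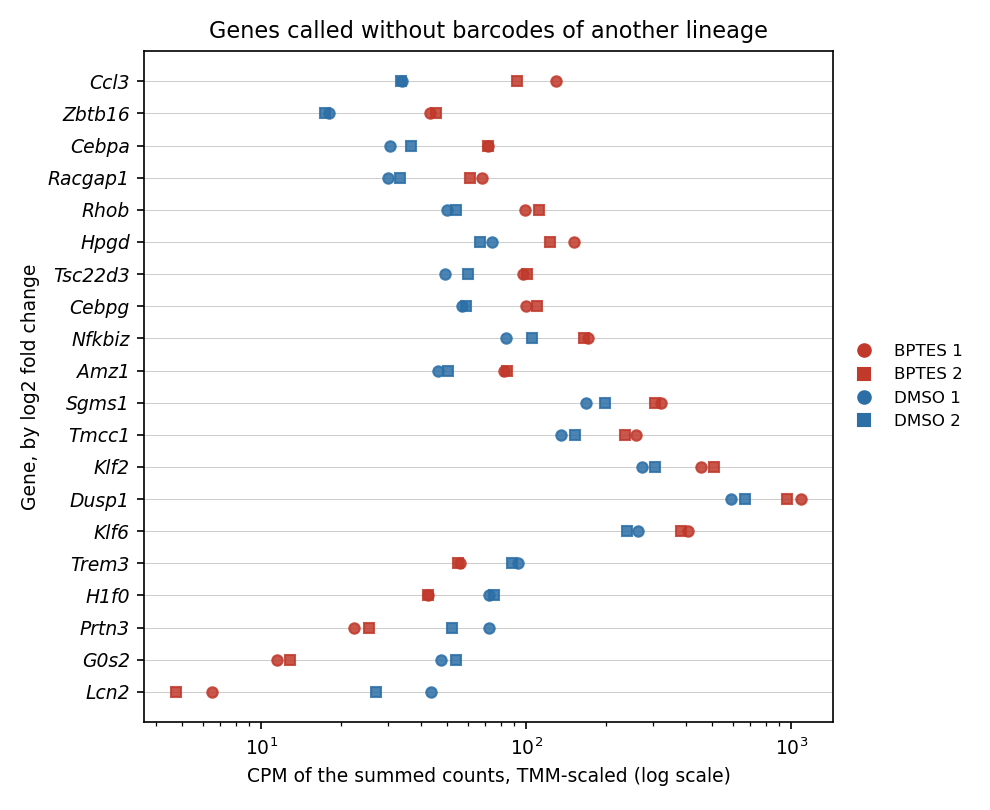
TMM-scaled CPM (log axis) of the 20 genes called among the filtered members, 1 point per library, ordered by log2 fold change. The BPTES libraries (red) lie above the DMSO libraries (blue) for 15 genes and below them for 5, from Ccl3 at 1.71 to Lcn2 at -2.68.

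Gene lists were then described by counts, since these members and lists were chosen with earlier results known. Type I interferon genes, which sense and restrict viruses, held no call. Among all members 40 of 47 tested genes had a log2 fold change above 0, 26 did not overlap upwards (22.7% of all genes did), and the median was 0.29 against -0.0004 over all genes. Among the filtered members the figures were 41 of 46, 32 (23.5% of all genes) and a median of 0.36. Rsad2, the antiviral viperin, came closest, with 41.9 and 34.7 CPM against 14.8 and 19.1 (1.17, SE 0.172, adjusted p = 0.0978). Ifit3, which binds viral RNA sensors, had 27.9 and 19.2 against 9.58 and 13.8 CPM (1.00, adjusted p = 0.212). Isg15, the ubiquitin-like modifier, had 93.2 and 82.2 against 72.8 and 82.5 CPM and overlapped (0.17, adjusted p = 0.543). Interferon-stimulated genes are switched on through the interferon-stimulated response element, so the promoters of these 3 fixed genes are shown, from 250 bases before to 50 after the start given by RefSeq (GRCm38.p6). They lie at chr12:26456403-26456702 on the minus strand, chr19:34583279-34583578 on the plus strand and chr4:156200769-156201068 on the minus strand. Capitals mark the core of that element, GAAA, any 2 bases and GAAA again, found on either strand, with 1 match in Rsad2, 2 in Ifit3 and 3 that overlap each other in Isg15.
Rsad2: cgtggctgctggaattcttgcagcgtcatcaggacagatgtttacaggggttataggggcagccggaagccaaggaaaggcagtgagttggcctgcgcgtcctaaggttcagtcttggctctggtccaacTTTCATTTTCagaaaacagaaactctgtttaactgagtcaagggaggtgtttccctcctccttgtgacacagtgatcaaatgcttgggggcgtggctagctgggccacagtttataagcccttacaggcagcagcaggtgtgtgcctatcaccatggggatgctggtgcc
Ifit3: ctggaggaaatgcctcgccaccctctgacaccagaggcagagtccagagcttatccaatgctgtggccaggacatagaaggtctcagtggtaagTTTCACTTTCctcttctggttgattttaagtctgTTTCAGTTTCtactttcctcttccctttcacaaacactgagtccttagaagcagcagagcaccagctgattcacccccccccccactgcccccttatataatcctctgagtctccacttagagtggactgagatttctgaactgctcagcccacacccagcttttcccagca
Isg15: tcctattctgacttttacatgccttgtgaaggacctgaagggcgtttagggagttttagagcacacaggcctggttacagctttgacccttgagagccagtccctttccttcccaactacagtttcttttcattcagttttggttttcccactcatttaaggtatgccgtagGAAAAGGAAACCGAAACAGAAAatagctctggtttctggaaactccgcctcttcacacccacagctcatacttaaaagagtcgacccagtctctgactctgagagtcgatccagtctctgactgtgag
These letters occurred in 20 of the 36 tested list genes with a promoter entry and in 3.99% of all 27025 genes with one. The median log2 fold change was 0.32 for the 20 genes with a match and 0.31 for the 16 without, so in these libraries the match did not separate genes by their difference. Isg15, with the most matches of the 3, had the smallest difference.

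Heat-shock genes, the chaperones of unfolded protein, showed the same leaning. All 20 tested had a log2 fold change above 0 among all members (median 0.33), and 15 did not overlap upwards, against 22.7% of all genes. Among the filtered members 18 of 20 were above 0 (median 0.41), with 12 apart upwards and 1 downwards, against 23.5% and 22.9% of all genes. None was called. Hspa8, the constitutive chaperone, had 1491 and 1724 against 1283 and 1140 CPM among the filtered members (0.41, adjusted p = 0.139). The inducible Hspa1a had 15.0 and 33.9 against 8.37 and 9.69 CPM (1.47, adjusted p = 0.157), and its near-identical copy Hspa1b may share its reads. Immediate early genes, which respond to stimulation and to tissue handling alike, had 22 of 28 above 0 among all members (median 0.24) and 22 of 27 among the filtered ones (median 0.33). There 4 were called higher, Dusp1, Klf2, Klf6 and Rhob (0.144% of all filtered genes were), and 20 did not overlap upwards (23.5% of all did). Fos stood at 1994 and 1749 against 1102 and 1346 CPM (0.61, adjusted p = 0.0909), and Atf3 at 767 and 702 against 323 and 475 CPM (0.88, adjusted p = 0.0960). Whether handling between digestion and capture moved these genes was not tested.

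Energy genes leaned the other way. Of 30 tested genes of the citric acid cycle and respiratory chain, 27 had a log2 fold change below 0 among all members (median -0.18), and none was called. Of them 23 did not overlap downwards, against 22.7% of all genes. Fh1, fumarase, had 36.1 and 27.9 against 48.8 and 47.4 CPM among the filtered members (-0.60, adjusted p = 0.140). Ndufb8, of respiratory complex I, had 164.5 and 163 against 204 and 203 CPM (-0.31, adjusted p = 0.140). Among glycolysis genes 20 of 26 were below 0 among all members (median -0.25), none called. In the filtered members Gapdh stood at 755 and 745 against 955 and 948.5 CPM (-0.34, adjusted p = 0.117) and Pgk1 at 144 and 145 against 192 and 180.0 CPM (-0.36, adjusted p = 0.127). The exception with the smallest p was Ldhb, at 28.3 and 27.9 against 17.1 and 11.3 CPM (0.98, adjusted p = 0.117). Lipid synthesis genes had 19 of 21 above 0 among all members (median 0.35) and 15 of 19 among the filtered ones (median 0.22), none called.

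Genes of glutamine metabolism and transport were a list of their own. Of 39 tested, 19 had a log2 fold change above 0 and 20 below (median -0.02), and none was called. Glul, which makes glutamine, had 122 and 109.5 CPM with BPTES and 79.3 and 96.2 with DMSO over all members (0.40, adjusted p = 0.248). Slc38a1, a glutamine transporter, had 115 and 113 against 154 and 156 CPM, without overlap and with little spread, and missed the threshold (-0.44, SE 0.0689, adjusted p = 0.104). Slc1a5, another such transporter, had 34.6 and 43.1 against 41.8 and 35.8 CPM (0.01, adjusted p = 0.993). The amino acid stress list of ATF4 targets had 21 of 31 above 0 among all members (median 0.17), none called. Among the filtered members Cebpg was called higher, 1 of 28 tested, against 0.144% of all genes there.

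Markers of monocyte state follow, of which Chil3 and Apoe were chosen after their values were seen. Granule and alarmin genes had 14 of 19 below 0 among all members (median -0.31). S100a8 and S100a9, the calprotectin pair that neutrophils make in bulk, had 15.6 and 32.8 against 94.4 and 49.7 CPM (-1.55, adjusted p = 0.212) and 12.01 and 39.98 against 95.5 and 30.6 CPM (-1.24, adjusted p = 0.472). Up to 65.6% of S100a9 sat in 2 members. Chil3, a chitinase-like protein of freshly emigrated monocytes, and Vcan were compared as shares of members after thinning each to 3000 UMIs. Vcan was present in 41.0% and 46.9% of thinned members with BPTES and in 62.1% and 60.6% with DMSO, and in 0.776% of thinned endothelial cells, a class that should lack it. The mean difference was -17.4 percentage points, with the smallest possible exact permutation p of 0.333, and the CPM (313 and 425 against 603 and 559) gave a log2 fold change of -0.65 (adjusted p = 0.166). Chil3 was present in 46.2% and 50.9% against 62.1% and 63.7%, and in 0.639% of endothelium, with the same exact permutation p of 0.333. Its CPM overlapped (783 and 710.1 against 762 and 1088), so no order is read from the share. Apoe, which rises as monocytes become macrophages, was present in 67.7% and 70.5% against 56.2% and 46.2%, but also in 7.98% of endothelium. Unthinned, Vcan was in 66.7%, 75.2%, 84.3% and 80.6% of members, in the order BPTES 1, BPTES 2, DMSO 1, DMSO 2. Endothelial cells were shallower before thinning, with medians of 12597 to 13691 UMIs, and 3 members were too shallow to be thinned.

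Other fixed genes were not called either. Spi1, the myeloid master factor PU.1, had 498 and 482 against 472 and 527 CPM (-0.03, adjusted p = 0.921). Csf1r, the receptor for M-CSF, had 370.2 and 395 against 371 and 375 CPM (0.04, adjusted p = 0.866). Nr4a1, needed for conversion to the non-classical state, had 652 and 556 against 418 and 474 CPM (0.44, adjusted p = 0.193). MHC class II genes had 9 of 9 above 0 among all members, 3 of them apart upwards against 22.7% of all genes, and 6 of 8 above 0 among the filtered members. H2-Ab1 overlapped (551 and 565 against 329 and 609 CPM), with DMSO 2 above and DMSO 1 below both BPTES libraries. Cdkn1a, a cell cycle inhibitor of senescence, had 608 and 685 against 613 and 626 CPM (0.06, adjusted p = 0.792). Cdkn2a, the gene of p16, gave 1 UMI in all, in BPTES 1. It was seen in 0 members of the other libraries. By the limit of 3 counts, which is not the exact interval used for the shares, that allows a share of cells with a UMI of up to 0.737% in BPTES 2, 1.27% in DMSO 1 and 1.19% in DMSO 2.

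**Figure D5:**
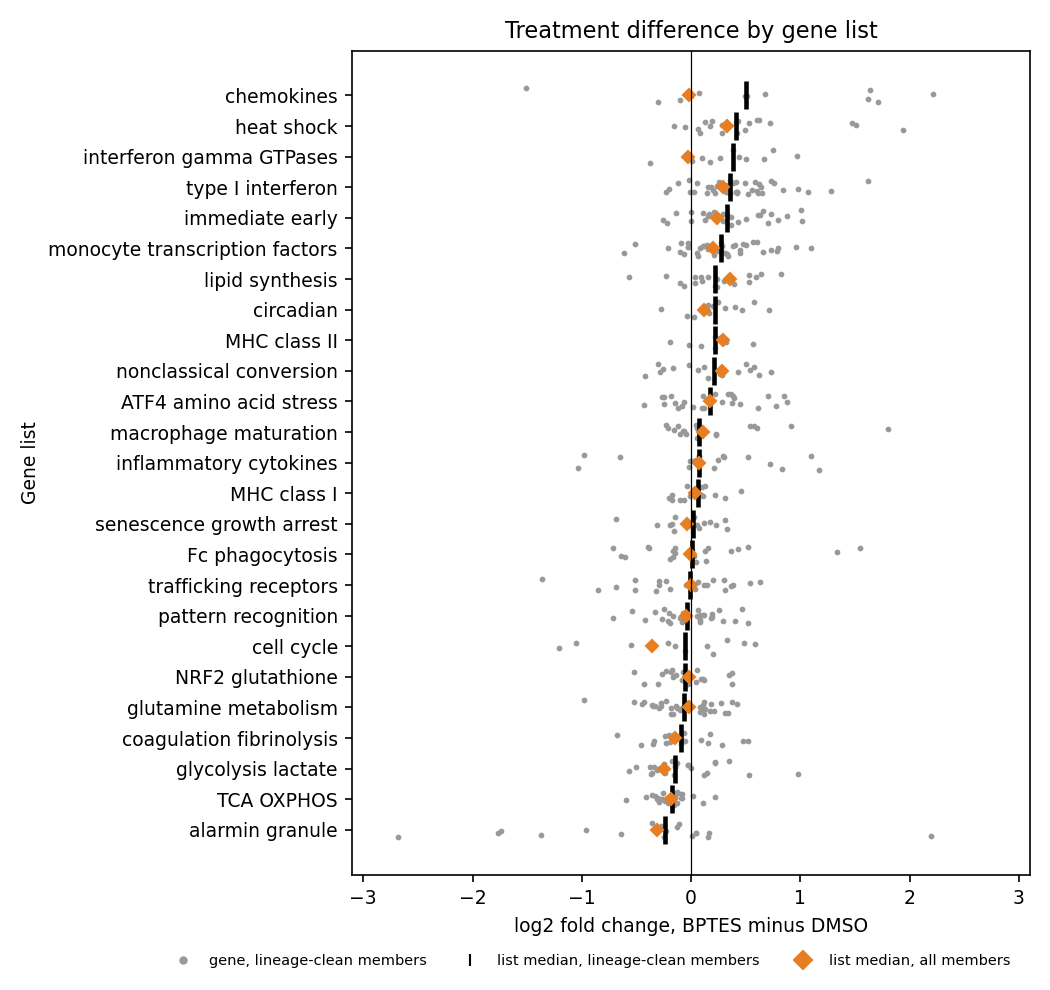
Log2 fold change of each list gene among the filtered members (grey points), with the list's median there (black bar) and among all members (orange diamond). Heat shock, type I interferon and immediate early genes have medians between 0.24 and 0.41 in both sets, glycolysis, respiration and granule genes lie below 0, and chemokines and interferon gamma GTPases move with the choice of members.

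Finally the BPTES effect was compared between classes in 1 model with the library as a block. Non-classical monocytes differed from classical ones in 1 of 13873 genes (0.00721%), Lyz1, with 1083 (7.81%) at an unadjusted p under 0.05. Lyz1, a lysozyme, had 42.7 and 48.8 CPM with BPTES and 14.4 and 6.03 with DMSO in classical monocytes, and 18.7 and 21.97 against 39.6 and 14.1 in non-classical ones. Between 10.7% and 17.6% of classical monocytes carried it, and 2 members held 55.9%, 44.1%, 69.6% and 29.3% of its UMIs there (BPTES 1, BPTES 2, DMSO 1, DMSO 2). The difference of log2 fold changes was 2.56 (SE 0.174, adjusted p = 0.0392). Lyz1 is a close copy of the far more abundant Lyz2, and the assignment of reads between them is uncertain. The call was lost when any 1 library was left out.

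Interstitial macrophages differed from classical monocytes in 49 of 13002 genes (0.377%, with 1985 or 15.3% at an unadjusted p under 0.05), 25 with the higher log2 fold change in classical monocytes and 24 with the lower. They numbered 154 and 196 with BPTES and 75 and 117 with DMSO. Ccl3 had 109.9 and 77.9 against 34.8 and 28.7 CPM in classical monocytes, and 245 and 194 against 437 and 423 in the macrophages, a difference of 2.497 (SE 0.147, adjusted p = 0.00464) that held in each of the 12 alternatives run. Within each class alone Ccl3 was not called: its log2 fold change was 1.56 over all classical monocytes (adjusted p = 0.0632) and -0.97 in the macrophages (adjusted p = 0.137). Slpi, a protease inhibitor, had 224 and 284 against 331 and 325 CPM in the monocytes and 201 and 821 against 16.8 and 8.70 in the macrophages (-5.51, adjusted p = 0.0245). F5 is a coagulation factor. It had 259 and 279.8 against 310.2 and 285 CPM in the monocytes and 32.2 and 39.2 against 9.82 and 7.97 in the macrophages (-2.19, adjusted p = 0.0105). For F10, another coagulation factor, the difference was -2.02 (adjusted p = 0.0105). None of Slpi, F5 and F10 was called in either class alone. Their log2 fold changes ran from -0.37 to -0.14 in the monocytes, and in the macrophages they were 5.397, 2.02 and 1.73 (adjusted p = 0.137, 0.137 and 0.0822). For the macrophages the spread of UMIs over barcodes was not computed, and no filter on other lineages was applied. How far a few macrophage barcodes carry these differences was not tested.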

How the data were processed

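Single-cell RNA was measured in 4 libraries. The authors deposited filtered matrices of UMI counts, made with Cell Ranger 8.0.1 per the file headers, and the submitters' processing notes name mm10. Each barcode's raw counts were gated as described, and members' counts were summed per library. The class gates, members and gene lists were chosen with earlier results of these data known. R 4.3.3 and edgeR 4.0.16 gave the tests (TMM scaling, filterByExpr, quasi-likelihood F test, two-sided, Benjamini-Hochberg over all genes tested). Class effects were compared as a class-by-treatment term with the library as block. Log2 fold changes are BPTES minus DMSO, SEs are approximate, and CPM use TMM-scaled totals, except between classes, where plain totals were used. DESeq2 1.42.0 was an alternative. Libraries' single values were compared by exact permutation. Thinning drew 3000 UMIs per member. No doublet caller was run; barcodes with markers of another lineage were handled by the filters described. The tests were first tried on simulated data. Named genes were up to 12 calls per direction of at least 10 CPM with groups apart, called list genes, 33 fixed genes, up to 6 calls per direction in each class comparison, and the leading genes of the class. The 20 calls among the filtered members, Chil1, Lamp3 and the list genes outside the fixed ones were chosen after their values were seen. Of the list symbols, 10 were not matched by the matrices' symbols. Some of the fixed genes are not reported here. Promoter sequences are RefSeq's, and 11 of the 47 tested interferon genes had no entry.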

Additional observations from a re-analysis of the deposited data

Results flagged for a closer look

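The BPTES effect differed between classical monocytes and another class, by the test of the difference itself, for genes that include the following. Against non-classical monocytes this was Lyz1, with a difference of log2 fold changes of 2.56. In classical monocytes 2 members held 29.3% to 69.6% of its UMIs by library. Against interstitial macrophages 49 genes were called, of which up to 6 per direction are named here. The higher values in classical monocytes were those of Emp2 (3.24), Lyz1 (3.08), Cbr2 (3.04), Col23a1 (2.95), Ccl3 (2.497) and Nav2 (2.33). The lower ones were those of Slpi (-5.51), Slc22a4 (-3.28), F5 (-2.19), Rai14 (-2.11), F10 (-2.02) and Fam20a (-1.94). How the UMIs of these genes were spread over the macrophages was not computed. For Nav2, 2 classical monocytes held 41.0% and 42.7% of the class's UMIs with BPTES. Its log2 fold change in the class was 1.30 over all members and -0.52 among the filtered members. For Emp2 and Cbr2, both strong in lung epithelium, the level in classical monocytes was 50.3 and 14.7 against 6.34 and 8.97 CPM and 37.4 and 62.6 against 4.09 and 8.83 CPM. AT2 markers summed to 1787 and 1602 CPM with BPTES and 56.0 and 133 with DMSO in the same members, and their part in the differences was not tested.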

How the results depend on the processing

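With 2 libraries a group, no single-value test could pass 0.05, and DMSO members were deeper. The planned filter on other lineages used the endothelial, fibroblast, B, T, NK, alveolar type 1 and dendritic-cell marker sets. A member with at least 3 UMIs of any set was left out. Alveolar type 1 markers alone reached 3 UMIs in 71.5% and 68.6% of members with BPTES and 78.0% and 68.3% with DMSO. Whether those members belong to another lineage was not tested, so values under this filter are not read as cleaner. The 12 calls among all members became 902 without a filter on low counts, 142 with DESeq2, 19 with robust estimation, 93 with the replicate number as a block, 1 (none of the 12) under the planned filter on other lineages, which kept 32 to 67 members a library, 0 without members of over 2.5 times the median UMIs (by edgeR, 1493 at an unadjusted p under 0.05), and 20 with the filter added later. Leaving out 1 library gave 5 to 34 calls. The 20 calls among the filtered members became 69 with the replicate block, 114 with DESeq2, 556 without a low-count filter, 84 without neutrophil-marked members, and 2 to 120 without 1 library. The numbers do not pair the libraries in the labels, and the deviations of the libraries numbered 1 correlated at -0.07. The 1 gene against non-classical monocytes became 154 without a filter, 0 with the stricter filter (885 at an unadjusted p under 0.05 by edgeR), 19 with the planned lineage filter, 2 without deep members, 7 with the added filter, and 0 to 4 without 1 library. The 49 against interstitial macrophages became 1027 without a filter, 29 with the stricter one, 1 with the planned and 170 with the added lineage filter, and 36 to 406 without 1 library. In both class comparisons the lineage filters and the filter on deep members were applied to the classical monocytes only. The other class kept all its barcodes, so these counts do not compare 2 filtered classes. The share kept its direction in all 10 alternatives, at 0.292 percentage points with the planned lineage filter and 1.08 to 2.86 without 1 library, lowest without BPTES 2. Signs turned for Nav2 (-0.52) and Slc1a5 (-0.054) with the added filter. Under the planned lineage filter they turned for Slc1a5 (-0.20), S100a8 (2.28), S100a9 (1.83), H2-Ab1 (-0.13), Irf8 (-0.14) and Plac8 (0.11). Leaving out 1 library in turn gave ranges across 0 for Slc1a5 (-0.16 to 0.15), Cxcl10 (-0.58 to 1.86), H2-Ab1 (-0.13 to 0.76), Cd74 (-0.0082 to 0.67), Il1b (-0.016 to 0.27), Cx3cr1 (-0.17 to 0.25), Spi1 (-0.11 to 0.049), Irf8 (-0.099 to 0.18), Cdkn1a (-0.026 to 0.14), Csf1r (-0.010 to 0.079) and Fn1 (-0.0047 to 0.14). Only Nav2 of these was called. The causes were not tested.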
